A study of Mus musculus with 22 samples.

Results

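Lyn, Syk, Btk, Blk, Zap70, Blnk, Plcg2, Pik3cd, Cd79a and Cd79b encode the first steps of B cell receptor signalling, together with the T cell counterpart of Syk. They were chosen by name as the 10 rows of the count matrix with these symbols, among 52636 gene identifiers in all. All 10 passed the low-count filter in every comparison below. Expression was measured by 3' end sequencing, in which each transcript gives tags near its 3' end, in 22 lymphoma libraries from 15 mice of a mixed 129/C57Bl6 strain. The sources used here give no ages.

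Every mouse carried floxed p53 alleles and the Mb1-Cre allele (p53fl/fl;Mb1Cretg/+), so Cre was driven by the promoter of Mb1, which is Cd79a. The mice of the Ccnd2 groups also carried a cyclin D2 transgene in the Rosa26 locus (R26-Ccnd2tg/tg;p53fl/fl;Mb1Cretg/+). The submitters called tumours MCL-like (resembling mantle cell lymphoma) or non-MCL by immunophenotype. There were 6 MCL-like transplant libraries from 4 donor mice, 4 MCL-like primaries from 4 mice, 2 Ccnd2 non-MCL transplant libraries from 1 donor mouse, 3 Ccnd2 non-MCL primaries from 3 mice, and 7 p53-only primary libraries from 6 mice, all non-MCL. The MCL-like groups all had the Ccnd2 genotype. Transplanted tumours were grown in NSG mice, an immunodeficient strain that lacks mature T, B and NK cells. For the 6 MCL-like transplants the sample title reads non-MCL while the immunophenotype field reads MCL-like, and the field was followed. Of MCL-like primaries 3 were spleen tumours and 1 a mesenteric lymphoma, of Ccnd2 non-MCL primaries 2 were from spleen and 1 was mediastinal, and p53-only libraries held 3 spleen tumours, a mediastinal lymphoma, a thymoma and 2 lymphomas of no stated site. All transplant libraries were from spleen. p53-only replicates 2 and 5 came from 1 mouse and count as 1 mouse in every test. Levels are CPM, counts scaled to a common library total, which for 3' tags need no correction for length.

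Antigen binding to the B cell receptor lets the Src family kinases Lyn and Blk phosphorylate the tails of CD79A and CD79B. Syk docks there and phosphorylates the adaptor Blnk, which brings together Btk and the phospholipase Plcg2, while the catalytic subunit p110delta, encoded by Pik3cd, makes the lipid that recruits Btk. Zap70 does in T and NK cells what Syk does in B cells, at the tails of the CD3 chains. It has also been found in early B cells of mice and in some human chronic lymphocytic leukaemias.

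The start regions of 3 genes are shown because Zap70 and Syk are the kinase pair that the results turn on and the Cd79a promoter drives the Cre in all 15 mice. RefSeq windows of GRCm38.p6, from 250 bases before to 50 bases after a gene start, were listed for 7 of the 10 genes; of the windows of a gene, the one nearest the GENCODE gene start was taken. The Zap70 window lies at chr1:36761548-36761847, the Syk window at chr13:52583187-52583486 and the Cd79a window at chr7:24897247-24897546, each on the plus strand and written 5′ to 3′. Capitals mark matches on either strand to the E box CAGGTG bound by E2A, to the Ets core AGGAAGT and to the early B cell factor palindrome CCCNNGGG, which were chosen after the sequences had been read and do not overlap in these windows.
Zap70: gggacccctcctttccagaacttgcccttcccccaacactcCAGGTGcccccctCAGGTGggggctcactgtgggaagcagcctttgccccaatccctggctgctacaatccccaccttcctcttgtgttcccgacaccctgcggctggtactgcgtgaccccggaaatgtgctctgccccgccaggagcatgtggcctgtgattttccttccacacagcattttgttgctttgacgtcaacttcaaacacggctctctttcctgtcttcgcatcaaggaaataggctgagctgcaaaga
Syk: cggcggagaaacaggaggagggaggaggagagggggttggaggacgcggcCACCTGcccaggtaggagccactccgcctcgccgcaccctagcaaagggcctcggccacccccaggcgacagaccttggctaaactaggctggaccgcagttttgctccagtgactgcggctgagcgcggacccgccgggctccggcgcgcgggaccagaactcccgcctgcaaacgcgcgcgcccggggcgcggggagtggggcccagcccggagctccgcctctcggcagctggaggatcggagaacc
Cd79a: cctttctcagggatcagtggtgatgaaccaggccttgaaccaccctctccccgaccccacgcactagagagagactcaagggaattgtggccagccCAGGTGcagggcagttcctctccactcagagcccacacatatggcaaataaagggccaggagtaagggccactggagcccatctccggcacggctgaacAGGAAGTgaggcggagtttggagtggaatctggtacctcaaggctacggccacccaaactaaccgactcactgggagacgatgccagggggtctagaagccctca
Each of the 3 windows held the E box, which 20.2% of 32851 mouse windows of this length hold. The Zap70 window had it starting at −209 and at −196 from the RefSeq start, the Syk window at −200 and the Cd79a window at −154. The RefSeq start lies 264 bases downstream of the GENCODE gene start for Syk, 116 for Cd79a and 0 for Zap70. The Ets letters occurred in the Cd79a window, at −55, and in 9.4% of all windows. The exact EBF letters occurred in none of the 3 windows and in 13.7% of all. Stretches that differ from the EBF palindrome by a letter, such as ctcaaggg in the Cd79a window, were not counted. The Syk window had 31 CpG dinucleotides, the Zap70 and Cd79a windows 8 each. These matches describe letters, and neither a match nor its absence is evidence about binding.

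Library totals were between 2693399 and 8146613 counts. Ms4a1, which encodes the B cell surface protein CD20, was at 5.2 to 1975 CPM in the 22 libraries. Libraries also held RNA of other cells. The 9 measured erythroid genes summed to 23540 to 111500 CPM in MCL-like primaries, 4044 to 32490 CPM in Ccnd2 non-MCL primaries and 248.6 to 38910 CPM in p53-only primaries, and to 279.5 to 119500 CPM in MCL-like transplants. The 16 myeloid genes summed to 813.3 to 2317 CPM in MCL-like primaries, 715.8 to 4027 CPM in Ccnd2 non-MCL primaries and 323 to 5580 CPM in p53-only primaries. The 12 early B cell genes, which include Vpreb1 of the surrogate light chain, summed to 110.8 to 560.4 CPM in MCL-like primaries and 5007 to 11400 CPM in Ccnd2 non-MCL primaries. In p53-only primaries they summed to 297.2 to 10480 CPM, and replicates 4, 6 and 7 were the highest, at 10480, 3626 and 7855 CPM. Against all non-MCL primaries 7 of these 12 genes fell in MCL-like primaries and 3 of 14 mature B cell genes rose (edgeR), in a comparison where 5.52% of all genes were called. A lower level can mean fewer cells of a type or less RNA per cell, which bulk libraries cannot tell apart.

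**Figure D1:**
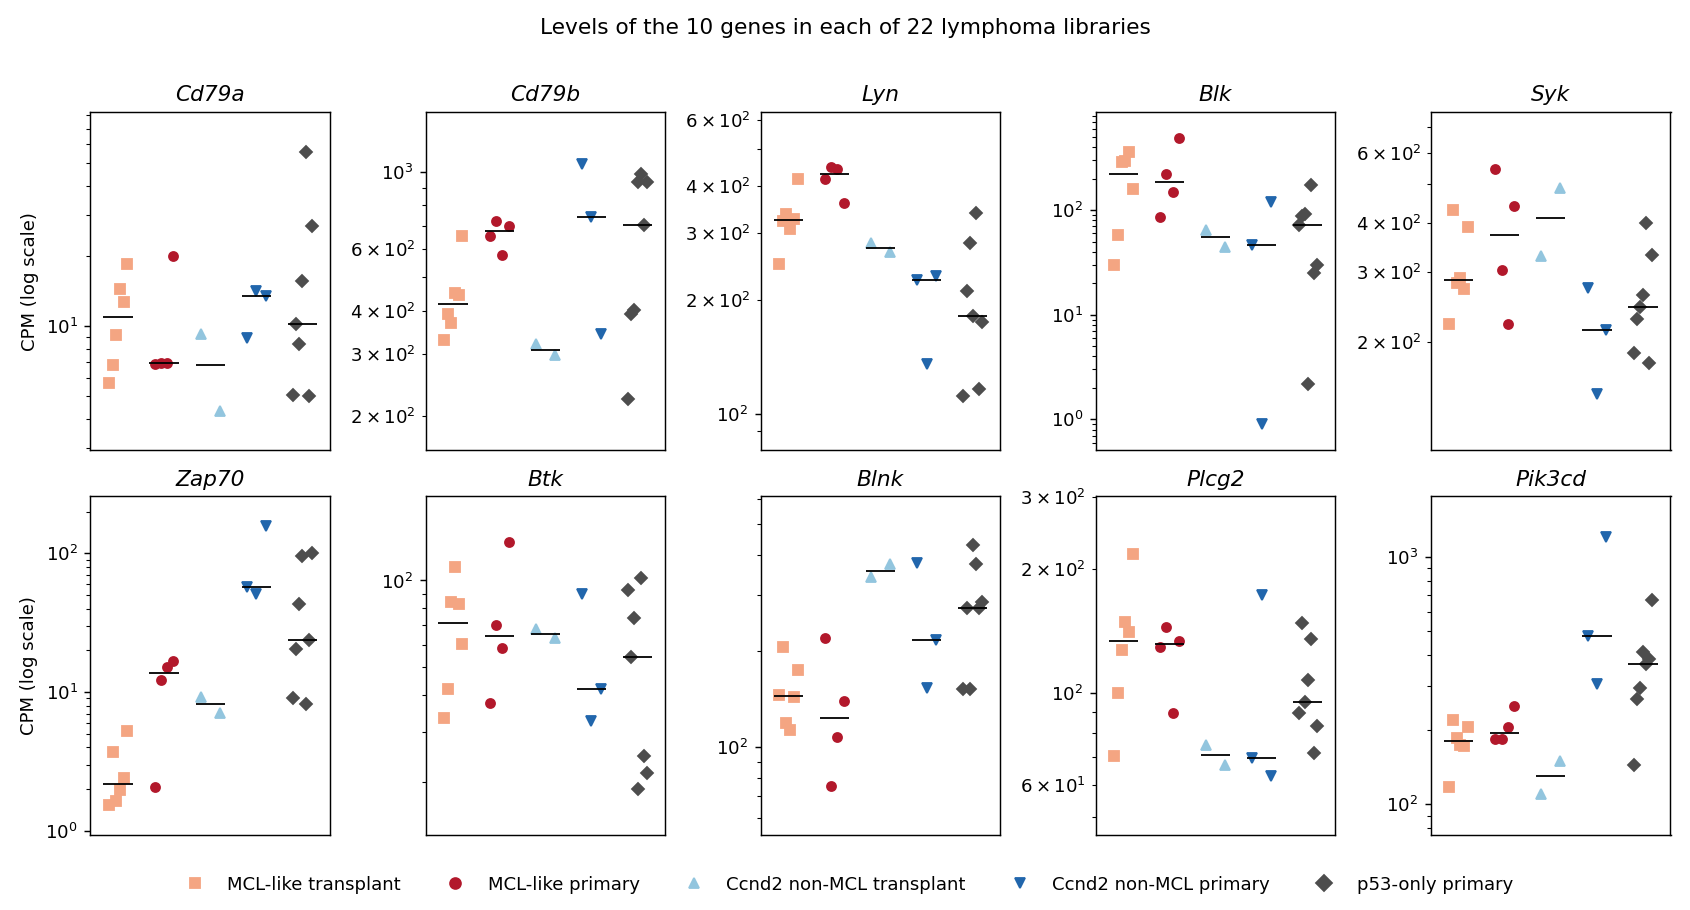
Each point is a library and each panel a gene, with CPM on a log axis and the median of each group as a line; from left to right the groups are MCL-like transplants, MCL-like primaries, Ccnd2 non-MCL transplants, Ccnd2 non-MCL primaries and p53-only primaries. Lyn was at 360.3 CPM or more in MCL-like primaries and at 339.5 CPM or less in every other primary library, and Zap70 spans 1.54 to 157.5 CPM.

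Of the receptor chains, Cd79b was abundant in all tumours and Cd79a was low in all. Cd79b had 654.5, 720.3, 577 and 699 CPM in MCL-like primaries, against 1052, 738.9 and 341.9 CPM in Ccnd2 non-MCL primaries. The p53-only libraries had 223.8 to 982.8 CPM of Cd79b with a median of 703.1 CPM, and the MCL-like range lies inside both other ranges. Cd79a had 6.84, 6.96, 6.96 and 19.9 CPM in MCL-like primaries, against 8.91, 14.1 and 13.5 CPM in Ccnd2 non-MCL primaries and 4.99 to 55.9 CPM (median 10.2) in p53-only primaries. No other gene of GENCODE overlaps Cd79a (chromosome 7, 24897381 to 24902197), and why its counts were low was not tested. CD79A and CD79B form a protein pair, and these RNA levels do not measure the receptor on the cell. One Cd79a allele is given as Mb1-Cre in all mice, and whether transcripts of that allele are counted was not tested.

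The Src family kinase Lyn was higher in MCL-like primaries. It had 417.8, 450, 445.3 and 360.3 CPM in MCL-like primaries, against 226.1, 135.5 and 231.3 CPM in Ccnd2 non-MCL primaries. The p53-only libraries had 111.6 to 339.5 CPM of Lyn, with a median of 181.6 CPM. The MCL-like mice did not overlap with either non-MCL group. Across 4 MCL-like and 9 non-MCL primary mice, Lyn rose by a log2 fold change of 1.25 ± 0.27 (SE; edgeR quasi-likelihood test, adjusted p = 0.0174). Of the 12967 genes tested in that comparison 5.52% were called at an adjusted p under 0.05, and Lyn was the 1 call among the 10 genes. In all, 4.68% of genes had no overlap between these groups, and again Lyn was 1 of the 10. All 4 MCL-like mice but only 3 of the 9 non-MCL mice carried the Ccnd2 transgene. Label and genotype are therefore confounded in part in this comparison. Against Ccnd2 non-MCL primaries alone the log2 fold change was 1.23 ± 0.38 (edgeR, adjusted p = 0.126), which missed the threshold. The Lyn call over all primaries was lost without MCL-like replicate 1, 2 or 3 (adjusted p = 0.0599, 0.0567 and 0.0591), with spleen tumours only (log2 fold change 1.12, adjusted p = 0.231) and without the libraries whose names begin with oTP, a prefix the labels do not explain (adjusted p = 0.0878). The oTP libraries are Ccnd2 non-MCL primary replicate 3 and p53-only replicates 4, 5, 6 and 7. No MCL-like library has the prefix, so prefix and label are confounded in part. Myeloid cells also express Lyn; the myeloid sums of the MCL-like primaries lay within the non-MCL range, and their part in the Lyn difference was not tested. With the erythroid genes removed before scaling, the Lyn log2 fold change was 1.28 (edgeR, adjusted p = 0.0191).

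Blk, the B cell specific Src family kinase, spanned 0.899 to 484.7 CPM among primaries. It had 85.6, 219.8, 150 and 484.7 CPM in MCL-like primaries, against 46.4, 0.899 and 119.3 CPM in Ccnd2 non-MCL primaries. In p53-only libraries it was between 2.2 and 173.3 CPM, with a median of 71.5 CPM. The lowest values, in Ccnd2 non-MCL replicate 2 and p53-only replicate 4, came with the highest early B cell sums, 11400 and 10480 CPM. The MCL-like log2 fold change was 2.07 ± 0.80 over all non-MCL primaries (edgeR, adjusted p = 0.126) and 2.16 ± 1.19 over Ccnd2 non-MCL primaries (adjusted p = 0.384), so no difference was called. With a mouse left out the second value was between 1.60 and 3.37, lowest without Ccnd2 non-MCL replicate 2 and highest without replicate 3.

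Syk was present in every library and did not pass the threshold. It had 548.6, 303.6, 221.9 and 440.9 CPM in MCL-like primaries, against 273.6, 147.5 and 214.7 CPM in Ccnd2 non-MCL primaries. The p53-only libraries had 176.6 to 398.4 CPM, with a median of 245.6 CPM. MCL-like replicate 3 lay inside both non-MCL ranges. The log2 fold change was 0.80 ± 0.27 over all non-MCL primaries (edgeR, adjusted p = 0.0881) and 0.98 ± 0.37 over Ccnd2 non-MCL primaries (adjusted p = 0.198). Without MCL-like replicate 1 these log2 fold changes of Syk were 0.47 and 0.64. DESeq2 called Syk over all non-MCL primaries, with an adjusted p of 0.0283, in a fit that called 1750 of 12967 genes.

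Zap70 had the largest log2 fold changes of the 10 genes in both comparisons of MCL-like primaries, and they were negative. It had 2.08, 12.2, 15.2 and 16.7 CPM in MCL-like primaries, against 57.2, 51.3 and 157.5 CPM in Ccnd2 non-MCL primaries. The p53-only libraries, replicates 1 to 7, had 9.13, 20.5, 43.5, 96.4, 8.17, 23.9 and 100.9 CPM. Every Ccnd2 non-MCL mouse was above every MCL-like mouse, while the p53-only libraries reached from inside the MCL-like range to above the lowest Ccnd2 non-MCL mice. The counts behind the low end are small: the 7 Zap70 counts of MCL-like replicate 1 give an exact 95% Poisson interval of 0.837 to 4.29 CPM, which covers counting error only. The log2 fold change was −2.84 ± 0.78 for MCL-like against Ccnd2 non-MCL primaries (edgeR, adjusted p = 0.105). In that comparison 0.308% of 12967 genes were called, 8 higher and 32 lower, and none of the 10 genes was. At an unadjusted p under 0.05 (edgeR) there were 2175 of the 12967 genes. Among the 10 there were 4, Lyn, Syk, Zap70 and Pik3cd. Of all genes 16.6% had no overlap between the groups, as did Lyn, Zap70 and Pik3cd. DESeq2 called 847 genes there, among them Zap70 (adjusted p = 0.00786), Pik3cd (0.027) and Lyn (0.0292). Against all non-MCL primaries the Zap70 log2 fold change was −2.32 ± 0.70 (edgeR, adjusted p = 0.0624), and edgeR called it when p53-only replicate 1 or the mouse of replicates 2 and 5 was left out (adjusted p = 0.0392 and 0.0476). DESeq2 also called Zap70 there (adjusted p = 0.00479), in a fit that called 1750 of 12967 genes. With spleen tumours only the Zap70 log2 fold change was −1.90 (edgeR, adjusted p = 0.297), and without the oTP libraries it was −1.61 (adjusted p = 0.208). Without MCL-like replicate 1, 2, 3 or 4 the edgeR adjusted p was 0.138, 0.135, 0.121 and 0.142. Spleen libraries alone had Zap70 at 12.2 to 16.7 CPM in the MCL-like group, against 51.3 and 157.5 CPM among Ccnd2 non-MCL tumours and 9.13, 20.5 and 43.5 CPM among p53-only ones.

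The median of Zap70 was 2.19 CPM in MCL-like transplants, 13.7 CPM in MCL-like primaries, 57.2 CPM in Ccnd2 non-MCL primaries and 23.9 CPM in p53-only primaries, and both transplants of the Ccnd2 non-MCL mouse had 9.26 and 7.12 CPM. From low to high the order is MCL-like transplants, Ccnd2 non-MCL transplants, MCL-like primaries, p53-only primaries and Ccnd2 non-MCL primaries. Neighbours in this order overlap, apart from the MCL-like and Ccnd2 non-MCL transplants. The genes whose log2 CPM followed Zap70 most closely over the 13 primary mice, among 8523 genes of at least 10 CPM, were Kctd2 (Pearson r = 0.921), Ipcef1 (0.903), Pck2 (0.901), Rgs2 (0.899) and Tsc22d4 (0.897). For Lyn they were Rbm47 (0.934), Gbp3 (0.931), Ddx58 (0.929), Snx20 (0.928) and Tank (0.922). For Syk they were Tmem134 (0.84), Unc93b1 (0.838), Birc3 (0.819), Pgpep1 (0.815) and Cyfip1 (0.811), at lower r. These correlations share libraries and groups and are given as a description.

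**Figure D2:**
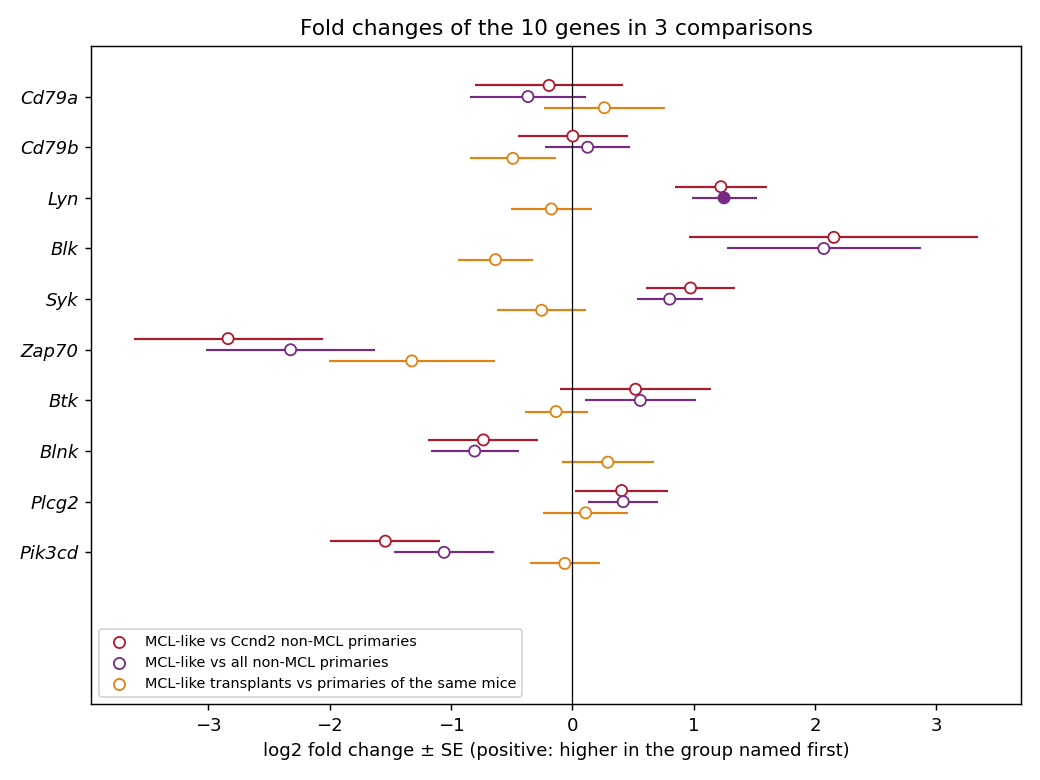
Points are edgeR log2 fold changes and bars their SE for the 10 genes, red for MCL-like against Ccnd2 non-MCL primaries, purple for MCL-like against all non-MCL primaries and orange for MCL-like transplants against primaries of the same mice; a filled point has an adjusted p under 0.05. Lyn over all non-MCL primaries is the filled point, at 1.25, and Zap70 is at −2.84, −2.32 and −1.32.

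Btk, the adaptor Blnk and the phospholipase Plcg2 were not called in either comparison of MCL-like primaries. Btk had 37.8, 70.1, 58.6 and 136.2 CPM in MCL-like primaries, against 89.5, 32.7 and 42.1 CPM in Ccnd2 non-MCL primaries and 19 to 101.8 CPM in p53-only primaries, and the groups overlapped. Blnk had 220, 75.3, 107.6 and 139.7 CPM in MCL-like primaries, against 377.6, 152.9 and 216.7 CPM in Ccnd2 non-MCL primaries and 151.7 to 432 CPM in p53-only primaries. MCL-like replicate 1 was the Blnk value inside the non-MCL range. The Blnk log2 fold change was −0.80 ± 0.36 over all non-MCL primaries (edgeR, adjusted p = 0.18), and −1.25 without MCL-like replicate 1. Plcg2 had 129.4, 144.9, 89.6 and 133.8 CPM in MCL-like primaries, against 69.8, 173 and 62.9 CPM in Ccnd2 non-MCL primaries and 71.6 to 148.1 CPM in p53-only primaries, again with overlap.

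Pik3cd, like Zap70, had its highest level in Ccnd2 non-MCL replicate 3. It had 182.9, 183.1, 204.5 and 250.4 CPM in MCL-like primaries, against 476.3, 305.4 and 1195 CPM in Ccnd2 non-MCL primaries. The p53-only libraries had 144.1 to 669.2 CPM, with a median of 368.5 CPM, and replicate 1, also low in Zap70, was the one below every MCL-like value. The Pik3cd log2 fold change was −1.54 ± 0.45 against Ccnd2 non-MCL primaries (edgeR, adjusted p = 0.12) and −1.06 ± 0.41 against all non-MCL primaries (adjusted p = 0.128). Without Ccnd2 non-MCL replicate 3 these log2 fold changes of Pik3cd were −0.80 and −0.70, and without the oTP libraries the second was −0.47. The microRNA gene Mir7023 lies inside Pik3cd on the same strand; otherwise no gene overlaps any of the 10 on its own strand. On the other strand 4 genes overlap Lyn, and Gm18828, Gm15154 and Gm27361 overlap Zap70, Btk and Plcg2. The strand setting of the counting is not given in the sources used here, so reads within these overlaps could not be told apart by strand. No overlapping gene came within 500 bases of the annotated 3' end of its partner among the 10, near which 3' tags lie.

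No difference was called in the comparison that asks about the transgene among non-MCL tumours. Between Ccnd2 non-MCL and p53-only primaries (3 and 6 mice) edgeR called 0 of 12967 genes, or 0%, with 1330 at an unadjusted p under 0.05, none of them among the 10; DESeq2 called 119 genes and none of the 10. The Zap70 log2 fold change was 0.86 ± 0.68 (edgeR, adjusted p = 0.667) and that of Pik3cd 0.81 ± 0.41 (adjusted p = 0.516). Without Ccnd2 non-MCL replicate 3 they were 0.23 for Zap70 and 0.13 for Pik3cd, and with spleen tumours only 1.96 and 1.53. The other 8 genes had log2 fold changes between −0.25 and 0.19. These tests do not show that the groups are alike.

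The balance of the 2 kinases was taken within each library, where scaling cancels. For 100 Syk counts there were 0.379, 4.03, 6.85 and 3.78 Zap70 counts in MCL-like primaries, against 20.9, 34.8 and 73.4 in Ccnd2 non-MCL primaries. The p53-only libraries had 4.87, 8.99, 17.7, 36.6, 2.05, 13.6 and 30.4, in replicate order. Zap70 stayed below Syk in all 22 libraries. Per mouse, log2 of Zap70 to Syk, each with 1 count added, was −5.25 ± 1.78 (SD, n = 4) in MCL-like and −2.35 ± 1.26 (n = 9) in all non-MCL primaries. The difference of −2.90 had an exact two-sided permutation p of 0.00839, where the smallest of 715 arrangements allows 0.0028. Adjusted over the 3 comparisons of this ratio it was 0.0252. The genes were chosen with earlier results of these data known, for which neither p accounts. Against Ccnd2 non-MCL primaries (−1.41 ± 0.91, n = 3) the MCL-like difference was −3.85 with an exact permutation p of 0.0571, the smallest that 35 arrangements allow, and 0.0857 adjusted. Ccnd2 non-MCL and p53-only primaries differed by 1.42 with an exact permutation p of 0.119. With spleen tumours alone the MCL-like against all non-MCL difference was −1.94 (exact permutation p = 0.0714). The ratio was not tested without the oTP libraries. The comparisons of MCL-like with all non-MCL and with Ccnd2 non-MCL primaries share their MCL-like mice, and the Ccnd2 non-MCL mice enter all 3 comparisons. The all non-MCL group pools Ccnd2 and p53-only mice, so against it label and genotype are confounded in part.

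**Figure D3:**
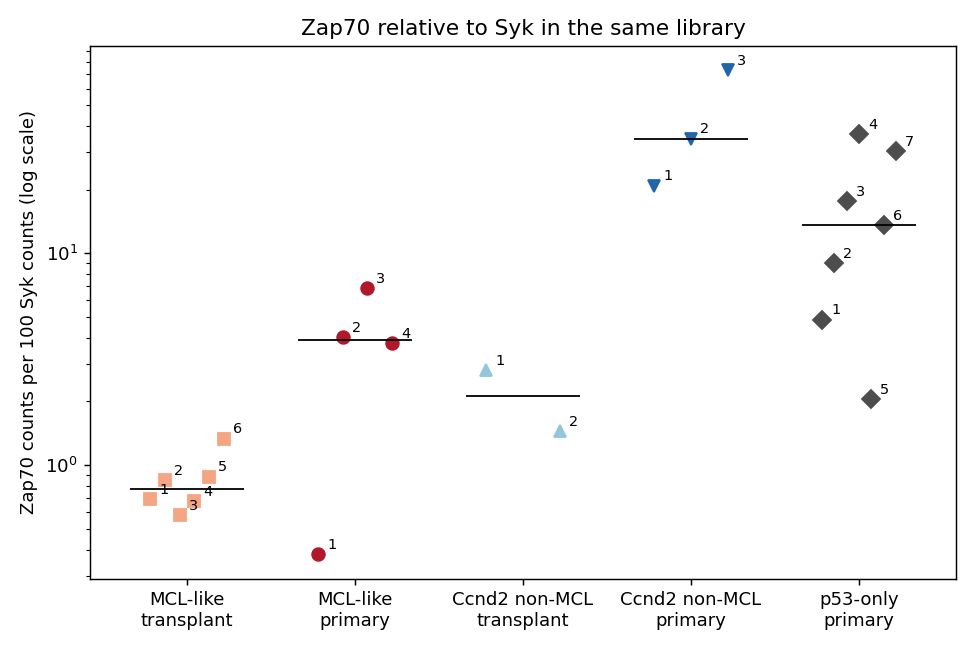
Zap70 counts per 100 Syk counts in each library, on a log axis, with replicate numbers beside the points and group medians as lines; groups run from MCL-like transplants at the left to p53-only primaries at the right. MCL-like primaries are at 0.379 to 6.85 and Ccnd2 non-MCL primaries at 20.9 to 73.4.

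T cell receptor genes in the same libraries did not follow this order. Cd3d, Cd3e, Cd3g, Cd247, Trac, Trbc1, Trbc2 and Trdc summed to 50.9, 296.2, 408.9 and 227.3 CPM in MCL-like primaries, against 8.91, 23.1 and 65.9 CPM in Ccnd2 non-MCL primaries. The p53-only libraries had 15.2, 272.4, 485.2, 4.67, 169.9, 8.78 and 80.4 CPM, in replicate order. Among primary groups the Ccnd2 non-MCL tumours, highest in Zap70 by median, were lowest in these genes by median. Among the 7 of them that could be tested, all 7 had positive log2 fold changes in MCL-like against Ccnd2 non-MCL primaries, with a median of 3.34 where all genes had −0.045, and 0 passed the edgeR test in either direction. The log2 fold changes of Cd3e, a CD3 chain, and Trbc2, a receptor constant region, were 3.67 ± 1.51 and 3.51 ± 1.61 (edgeR, adjusted p = 0.234 and 0.29). NK cells express Zap70 as well, and the 10 NK cell genes summed to 50 to 218.7 CPM in MCL-like primaries, 12.6 to 102.9 CPM in Ccnd2 non-MCL primaries and 7.1 to 507.6 CPM in p53-only primaries.

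Set against the T cell receptor sum, Zap70 ranged widely between primary libraries. For 100 T cell receptor counts there were 4.09, 4.13, 3.72 and 7.33 Zap70 counts in MCL-like primaries, against 641.7, 222.1 and 238.9 in Ccnd2 non-MCL primaries. In p53-only replicates 2, 3 and 5 there were 7.52, 8.96 and 4.81, near the MCL-like values. In p53-only replicates 1, 4, 6 and 7 there were 60, 2065, 272.7 and 125.4. Replicate 4 had 351 Zap70 counts with 17 T cell receptor counts in all, 1 of Cd3e, 1 of Trbc2 and 0 of Cd3d. Its 10 NK cell genes summed to 8.79 CPM. Vpreb1, a surrogate light chain gene of early B cells, was at 5231, 5691 and 2424 CPM in Ccnd2 non-MCL primaries. It was at 5132, 458.3 and 2879 CPM in replicates 4, 6 and 7 of the p53-only group, while every other primary library had 223.8 CPM or less. p53-only replicate 1, with a Zap70 to T cell receptor ratio of 60 per 100, had 4.8 CPM of Vpreb1.

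**Figure D4:**
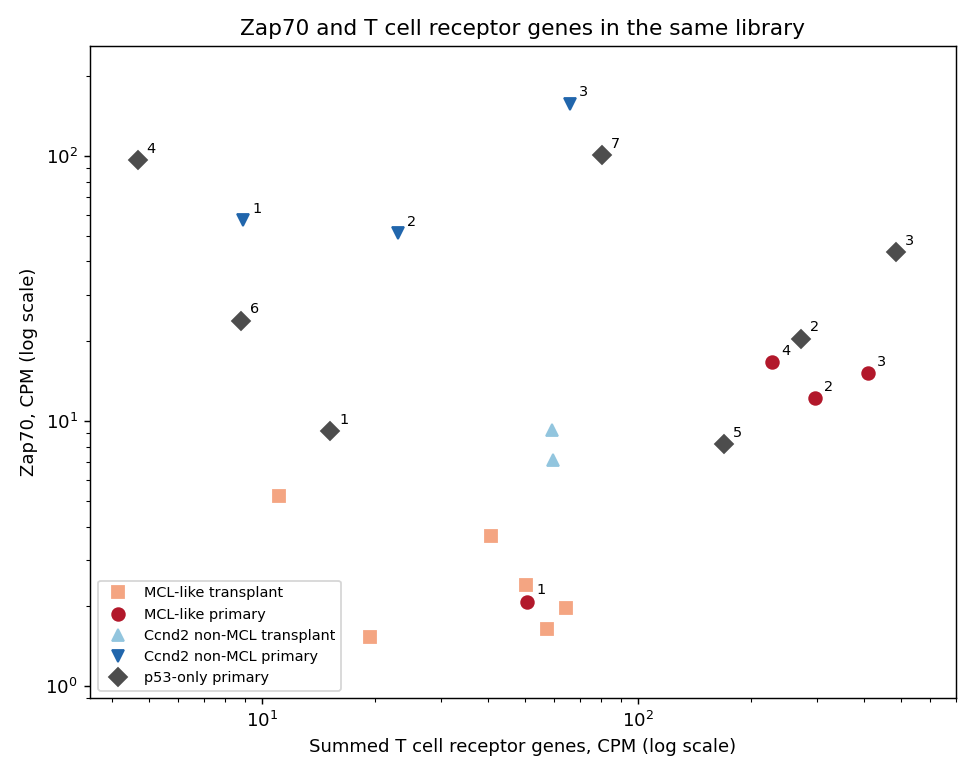
Zap70 against the summed T cell receptor genes in each library, both in CPM on log axes, with replicate numbers beside the primary libraries. The Ccnd2 non-MCL primaries, with replicates 4, 6 and 7 of the p53-only group, have Zap70 at 23.9 to 157.5 CPM with 4.67 to 80.4 CPM of T cell receptor genes, while MCL-like replicates 2, 3 and 4 have 12.2 to 16.7 CPM with 227.3 to 408.9 CPM. The first set are the primaries with the most Vpreb1. Of the other primaries, p53-only replicates 2, 3 and 5 have Zap70 at 20.5, 43.5 and 8.17 CPM with 272.4, 485.2 and 169.9 CPM. MCL-like replicate 1 has 2.08 CPM with 50.9 CPM, and p53-only replicate 1 has 9.13 CPM with 15.2 CPM.

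Other T cell signalling genes did not all go with Zap70. Lck, the Src family kinase that acts before Zap70, had 12.5, 104.4, 87.7 and 100.5 CPM in MCL-like primaries, against 23.8, 139.7 and 56.7 CPM in Ccnd2 non-MCL primaries. Lat, the adaptor that Zap70 phosphorylates, had 3.6, 16.5, 32.9 and 19.3 CPM in MCL-like primaries, against 15.6, 73.1 and 24.8 CPM in Ccnd2 non-MCL primaries, and reached 61.5 and 62.1 CPM in p53-only replicates 4 and 7. Neither Lck nor Lat was called by edgeR in any comparison.

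Transplants grew in hosts with no mature T or NK cells of their own, but their libraries still held counts of T and NK cell genes. The 10 NK cell genes summed to 1.98 to 37.3 CPM in MCL-like transplants, and to 52.4 and 41.7 CPM in Ccnd2 non-MCL transplants. The source of these counts was not tested. MCL-like transplant replicates 1 to 6 had 1.54, 3.67, 1.64, 1.97, 2.4 and 5.21 CPM of Zap70 from 5 to 29 counts each. The primaries of 3 of the same mice had 2.08, 16.7 and 12.2 CPM: transplants 1 and 2 came from the mouse of MCL-like primary 1, transplants 3 and 4 from that of primary 4 and transplant 6 from that of primary 2. With the mouse as a block the log2 fold change was −1.32 ± 0.68 (edgeR, adjusted p = 0.82). It was −1.99 without the mouse of MCL-like primary 1 and −0.56 without that of primary 4. Here edgeR called 0 of 12020 genes, or 0%, with 656 at an unadjusted p under 0.05 and none of them among the 10; DESeq2 called 31. The 7 T cell receptor genes tested all had negative values, with a median log2 fold change of −1.70 where all genes had 0.005, and 0 passed the test. The 9 erythroid genes tested had a median of −3.44, and 0 passed. The part of these cells in the Zap70 value was not tested.

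The 8 T cell receptor genes summed to 11.1 to 64.6 CPM in MCL-like transplants and to 59 and 59.5 CPM in Ccnd2 non-MCL transplants. Transplant 6 had the most Zap70 of the MCL-like transplants and the least T cell receptor signal. It had 29 Zap70 counts with 1 count of Cd3e and 0 of Trbc2, where a count of 0 allows up to 0.539 CPM. Its Zap70 to T cell receptor ratio was 46.8 per 100, against 2.86 to 9.03 in the other 5. Syk was at 222.4 to 430.8 CPM in MCL-like transplants, so Zap70 per 100 Syk counts was 0.581 to 1.33 there. Both transplants of the Ccnd2 non-MCL mouse had 2.8 and 1.45 Zap70 per 100 Syk counts, below all 3 primaries of that label, and Vpreb1 at 2.9 and 0.8 CPM. Their 12 early B cell genes summed to 1399 and 1069 CPM. The same sum was 130.1 to 305.9 CPM in MCL-like transplants and 5007 to 11400 CPM in Ccnd2 non-MCL primaries. A primary of the Ccnd2 non-MCL transplant mouse was not analysed here, so no test was made. The other genes of the 10 were not called in MCL-like transplants either. Lyn had 248.5 to 418.8 CPM with a median of 326 CPM (log2 fold change −0.17 ± 0.33, edgeR adjusted p = 0.915). Pik3cd had 117.1 to 218.1 CPM there. Blk had 30.1 to 361.5 CPM with the lowest 2 libraries, at 30.1 and 57.3 CPM, from the mouse whose primary was also lowest among MCL-like primaries.

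Further genes of the pathway were taken from 6 lists of kinases, adaptors, lipid and calcium signalling, inhibitors and downstream genes. Of 72 genes 68 were tested among primaries. In MCL-like against all non-MCL primaries 8 rose and 2 fell, and 5.52% of all genes were called. The median log2 fold change was 0.62 over the 68 against −0.127 over all genes. Label and genotype are confounded in part in that comparison. Of the downstream genes, Bcl10 (1.26 ± 0.21, edgeR adjusted p = 0.0081) and Malt1 (2.34 ± 0.28, adjusted p = 0.00127), which carry the receptor signal to NF-kB, rose. Malt1 had 182.3, 146.8, 147.2 and 177.6 CPM in MCL-like primaries, against 33.8, 57.3 and 45.4 CPM in Ccnd2 non-MCL primaries and 18.4 to 46.1 CPM in p53-only primaries. The transcription factor Nfatc1 (2.55 ± 0.47) and the GTPase Rac2 (1.36 ± 0.34) rose as well. Of 16 adaptors tested Bank1, which links Lyn to calcium release, and Cd81, a tetraspanin of the B cell surface, rose (2.68 ± 0.54 and 1.52 ± 0.25).

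Among 15 genes of lipid and calcium signalling the calcium channel Itpr1 rose (1.50 ± 0.30). Plcg1, the phospholipase that T cells use in place of Plcg2, had 34.5, 19.6, 16.5 and 30.1 CPM in MCL-like primaries, against 238, 119 and 127.5 CPM in Ccnd2 non-MCL primaries (log2 fold change −2.56 ± 0.63, edgeR adjusted p = 0.0838). The p53-only libraries had 17.7 to 144.5 CPM of Plcg1 with a median of 32.7 CPM, and overlapped the MCL-like range. Against all non-MCL primaries the Plcg1 log2 fold change was −1.84 ± 0.61 (edgeR, adjusted p = 0.083). Of 15 inhibitors tested Pag1, a membrane adaptor that holds the Lyn inhibitor Csk, fell (−1.60 ± 0.27, adjusted p = 0.00791). Pag1 had 15.8, 13.3, 18 and 21.8 CPM in MCL-like primaries, against 52, 69.2 and 63.1 CPM in Ccnd2 non-MCL primaries, with no overlap. None of the 6 tested Src family relatives and none of the 3 tested Tec family relatives was called by edgeR. With spleen tumours only, 1 of the pathway genes was called in place of 10, where 37 of 12989 genes were called. Against Ccnd2 non-MCL primaries alone the calls among the 68 were Malt1, higher (1.98 ± 0.37, adjusted p = 0.0484), and Pag1, lower (−1.72 ± 0.31, adjusted p = 0.0478), where 0.308% of all genes were called. These calls lay close to the threshold: 0 of the pathway genes were called without any 1 of the MCL-like or Ccnd2 non-MCL mice or without p53-only replicate 6 or 7. DESeq2 called 12 of the pathway genes, in a fit that called 847 of 12967 genes. Without the oTP libraries edgeR called 11, in a fit that called 552 of 13013 genes. Between Ccnd2 non-MCL and p53-only primaries 0 of 68, and in transplants 0 of 66, were called.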

How the data were processed

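RNA from fresh lymphoma cells was sequenced with a QuantSeq 3' mRNA-seq reverse kit, per the labels' protocols. The submitters' processing notes name FastQC, STAR and the build GRCm38; which versions, counter, strand setting and annotation were used is not given in the sources used here. Raw counts per Ensembl gene were used as the authors deposited them. Symbols came from GENCODE M21, and 52403 of 52636 identifiers matched. Library totals were 2693399 to 8146613 counts.

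The mouse was the replicate: libraries of 1 mouse were summed within a group. Transplants and primaries were paired by the mouse that the labels name; their deviations from group means correlated at 0.337, 0.402 and 0.333 over 8590 genes. Whether mice of a group are littermates is not stated. No pair of libraries agreed within sampling noise (smallest chi-square per degree of freedom 5.36 over 231 pairs). Comparisons used the edgeR 4.0.16 quasi-likelihood F test (robust, TMM scaling, default low-count filter; SE is the log2 fold change over the root of F) in R 4.3.3, with Benjamini-Hochberg adjustment over all genes tested, called under 0.05. The 3 primary groups shared a fit, with a 2-group fit for all non-MCL. DESeq2 1.42.0, other scalings, no filter, fewer erythroid genes, spleen tumours only, no oTP libraries and leaving out each mouse were alternatives. The scripts were tested on simulated data. The Zap70 to Syk ratio was tested by exact permutation.

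Members and lists were chosen with earlier results of these data known. Named genes were the 10, the T cell receptor genes with Lck and Lat, up to 3 genes of lowest adjusted p per pathway list and the 5 genes most correlated with Zap70, Lyn and Syk. Vpreb1, Ms4a1 and Rac2 were named after their values were seen. Some genes that this rule names are not reported here.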

Additional observations from a re-analysis of the deposited data

Results flagged for a closer look

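In the groups of 4 to 6 mice, 36 sets of values (the 10 genes, the Zap70 to Syk ratio and the T cell receptor sum) were searched for a mouse far from the rest, a search in which chance marks about 1 in 20. It marked 1: Cd79a in MCL-like primary replicate 4, at 19.9 CPM, where the other 3 mice had 6.84 to 6.96 CPM. The near identity of those 3 values makes the gap large against the range.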

How the results depend on the processing

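Of MCL-like against Ccnd2 non-MCL primaries, 40 genes were called; DESeq2 called 847, its size factors in edgeR gave 22, spleen tumours only 116 and no oTP libraries 552. Leaving out a mouse gave 0 to 54, with 0 without MCL-like replicate 3, 3, 5 and 7 without replicates 4, 2 and 1, 5 without Ccnd2 non-MCL replicate 2, 8 without its replicate 1, and in the p53-only group 5 without replicate 6, 23 without 4 and 24 without 7. Calls among the 10 genes were 3 by DESeq2 and 0 in each mouse left out. Of Ccnd2 non-MCL against p53-only primaries, 0 were called; DESeq2 called 119, no filter 2, spleen only 41, no oTP libraries 116, and leaving out a mouse 0 to 8. Of MCL-like against all non-MCL primaries, 716 were called; DESeq2 called 1750, spleen only 37, no oTP libraries 248. Leaving out a mouse gave 176 to 1091, with 188, 250, 176 and 191 without MCL-like replicates 1 to 4, 1091 without Ccnd2 non-MCL replicate 2, and in the p53-only group 440 without replicate 4, 395 without 6 and 418 without 7. Calls among the 10 genes were 3 by DESeq2, 0 in spleen tumours, 0 without oTP libraries and 0 to 2 with a mouse left out. Library-size scaling put the median of all genes at −0.221, against −0.127 with TMM, and the split of calls at 309 higher and 439 lower, against 368 and 348; DESeq2 size factors gave 400 and 287, no filter 325 and 194. Of transplants against primaries, 0 were called; DESeq2 called 31, no filter 35, leaving out a mouse 0 to 14. Without the replicate block 0 genes were called as well, so the pairing changed no call. The Zap70 to Syk log2 ratio of MCL-like against all non-MCL primaries was −1.94 with spleen tumours (exact permutation p = 0.0714) and −3.37 to −2.03 with a mouse left out; against Ccnd2 non-MCL primaries it was −4.32 to −2.98, and between Ccnd2 non-MCL and p53-only primaries 0.939 to 1.84. The causes were not tested.

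Reversals were of uncalled log2 fold changes. For MCL-like against Ccnd2 non-MCL primaries, Cd79b was −0.102 by library size, −0.319 without oTP libraries and −0.289 to 0.427 with a mouse left out. For Ccnd2 non-MCL against p53-only primaries with spleen tumours only, Lyn was −0.272, Btk −1.10, Plcg2 −0.015 and Cd79a 0.68. Without oTP libraries Lyn was −0.227, Btk −0.337, Blnk 0.398 and Cd79a 0.477. Plcg2 was −0.02 with no filter, and with the first library of the p53-only pair Blk was 0.001 and Cd79a 0.055. With a mouse left out, Lyn was −0.101 to 0.264, Btk −0.53 to 0.352, Blk −1.30 to 0.471, Blnk −0.58 to 0.171, Plcg2 −0.596 to 0.294, Cd79a −0.413 to 0.04 and Cd79b −0.242 to 0.549. For MCL-like against all non-MCL primaries, Cd79a was 0.078 with spleen tumours and 0.137 without oTP libraries. In transplants, Plcg2 was −0.001 by library size, and over all mice with no replicate block Btk was 0.023 and Blk 0.032. With a mouse left out there, Lyn was −0.357 to 0.037, Syk −0.574 to 0.038, Blnk −0.172 to 0.639, Plcg2 −0.152 to 0.483, Pik3cd −0.187 to 0.01 and Cd79a −0.309 to 0.624. Zap70 in MCL-like transplants rests on 5 to 29 counts a library, which limits its precision.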
